A study of Homo sapiens with 5 samples.

Results

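The C/EBP genes encode CCAAT/enhancer binding proteins, and 5 rows of the deposited table carry the names followed here: CEBPA, CEBPB, CEBPD, CEBPG and CEBPZ. The rule took them by name and used none of their values, although the family was picked with earlier results of these data known. They are 5 of the 18568 gene rows of the table. The cells were IMR90, an established line of normal fibroblasts from human lung. All carried RASV12, a constantly active RAS protein that was delivered by retrovirus and drives fibroblasts into senescence, and all had been selected with puromycin. Cells were seeded on day 10 of infection and received antagomirs, modified antisense oligonucleotides that block a microRNA, by transfection 24 h after seeding, and RNA was taken after that. There were 2 libraries with a control antagomir, whose columns carry the letters B and C, and 3 with an antagomir directed at miR-146a, whose columns carry A, B and C. Libraries from cells without RASV12 were not analysed here, so every group shares that state. The labels do not state whether libraries of a group were grown separately, and p-values therefore reflect only how far these libraries vary, perhaps for technical reasons.

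C/EBP proteins of the alpha, beta, delta and gamma type bind DNA as pairs through a basic leucine zipper, and each can pair with the others or with more distant zipper proteins such as ATF4. In fibroblasts with active RAS, C/EBP-beta is known as an activator of inflammatory secretion and of growth arrest, and its activity is set largely by phosphorylation and by the choice of start codon, which read counts do not show. CEBPZ shares the name but not the zipper: it encodes a CCAAT-binding protein whose yeast relative takes part in the assembly of the large ribosomal subunit. miR-146a is induced by NF-κB and is known to restrain signalling from interleukin-1 and Toll-like receptors. MicroRNAs pair with target transcripts mainly through the seed, and the mature miR-146a-5p from RefSeq (GRCh38.p14, chr5:160485372-160485393, plus strand) is shown to give the letters that were searched in the C/EBP transcripts. Its seed, bases 2 to 8, is in capitals.
hsa-miR-146a-5p: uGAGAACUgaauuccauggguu

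No C/EBP transcript held a match of 7 or 8 bases to this seed in its longest annotated 3′ UTR. The matches searched on the transcript strand were the 8mer AGTTCTCA and the 7mers AGTTCTC and GTTCTCA that it contains, and 22 percent of 4601 protein-coding genes tested here had at least one. The lengths searched were 1404 bases for CEBPA, 618 for CEBPB, 402 for CEBPD, 2994 for CEBPG and 152 for CEBPZ. The shorter 6mer GTTCTC, which lies inside each of these matches, was found in 35.8% of the same genes. CEBPA held 2 such 6mers, the only ones in the 5 transcripts, and both are shown with their neighbouring bases from the GENCODE 29 transcript (GRCh38, minus strand), with the 6mer in capitals. The first lies at chr19:33300152-33300175 and the second at chr19:33300005-33300028.
CEBPA, 6mer at base 1175 of the 3′ UTR: gaggtgagggggGTTCTCctttgc
CEBPA, 6mer at base 1322 of the 3′ UTR: aaggacggcttgGTTCTCttcttt

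The libraries held 8430859 to 9283950 reads in the rows analysed here, which are part of each library. The pair of C libraries differed from the remaining 3, here illustrated by a gene named because it marks them in these data. HRAS, a RAS gene whose reads could include a transgene's, was at 3610 normalized reads in control B, 10250 in control C, 4265 in anti-miR-146a A, 4008 in anti-miR-146a B and 9631 in anti-miR-146a C. Across 6317 tested genes the root mean square difference on the log2 scale was 0.58 between the 2 controls and 0.44 between control C and anti-miR-146a C. The labels do not say what the letters mark. Fibroblast markers were present (12 of the 16 listed had a row, and all 12 passed the filter on low values), and their summed normalized reads ran from 265000 to 391000 in controls and from 285000 to 372000 with anti-miR-146a. Markers of epithelial, endothelial, blood and fat cells summed to at most 107, 111, 304 and 620 normalized reads in any library. These sums cover 8 of 11, 5 of 9, 8 of 12 and 5 of 7 listed markers. The other markers had no row and could not be counted. G0S2 alone gave 619 normalized reads of the fat cell sum in control B. The part of these cell types in the results was not tested.

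CEBPB was by far the most abundant of the 5 genes, and CEBPA was close to the limit of detection. Levels of different genes are compared here as normalized reads per kilobase of annotated exon, since longer transcripts yield more reads. On this scale CEBPB lay between 4198 and 5492 over the 5 libraries. CEBPZ lay between 549 and 907, CEBPD between 412 and 641, CEBPG between 305 and 393 and CEBPA between 3.91 and 8.86. The ranges of CEBPZ and CEBPD overlapped, although CEBPZ was the higher in each of the 5 libraries, while every other pair of neighbours in this order was separated. CEBPE, the family member of granulocytes, had 0 reads in every library, which allows up to 3 reads in each.

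Of the 5 genes, CEBPZ showed the widest gap between antagomirs relative to its spread, and no C/EBP gene passed the threshold over all genes. Groups did not overlap for CEBPZ and CEBPG, which were lower in every anti-miR-146a library than in both controls, and overlapped for the other 3 genes. Such a gap in the lower direction was present in 13.5% of the 6317 genes tested. At an adjusted p under 0.05 (limma on log2(value + 1), Benjamini-Hochberg) 0 of the 5 and 0 of all 6317 genes passed, or 0 percent. At an unadjusted p under 0.05 there were 715 genes (11.3%), and CEBPZ was the one member among them, while 4.62% of genes were both below 0.05 and lower. On recovered reads, edgeR called 0 genes, with 710 (11.2%) below 0.05 before adjustment, and DESeq2 called 44, or 0.653% of those it adjusted over, with no member among them. In 5593 rows with an adjusted p in the authors' deposited table, 144 (2.57%) are under 0.05, again with no member. The median log2 fold change of the 5 genes was −0.047, beside 0.0046 over all genes tested.

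**Figure D1:**
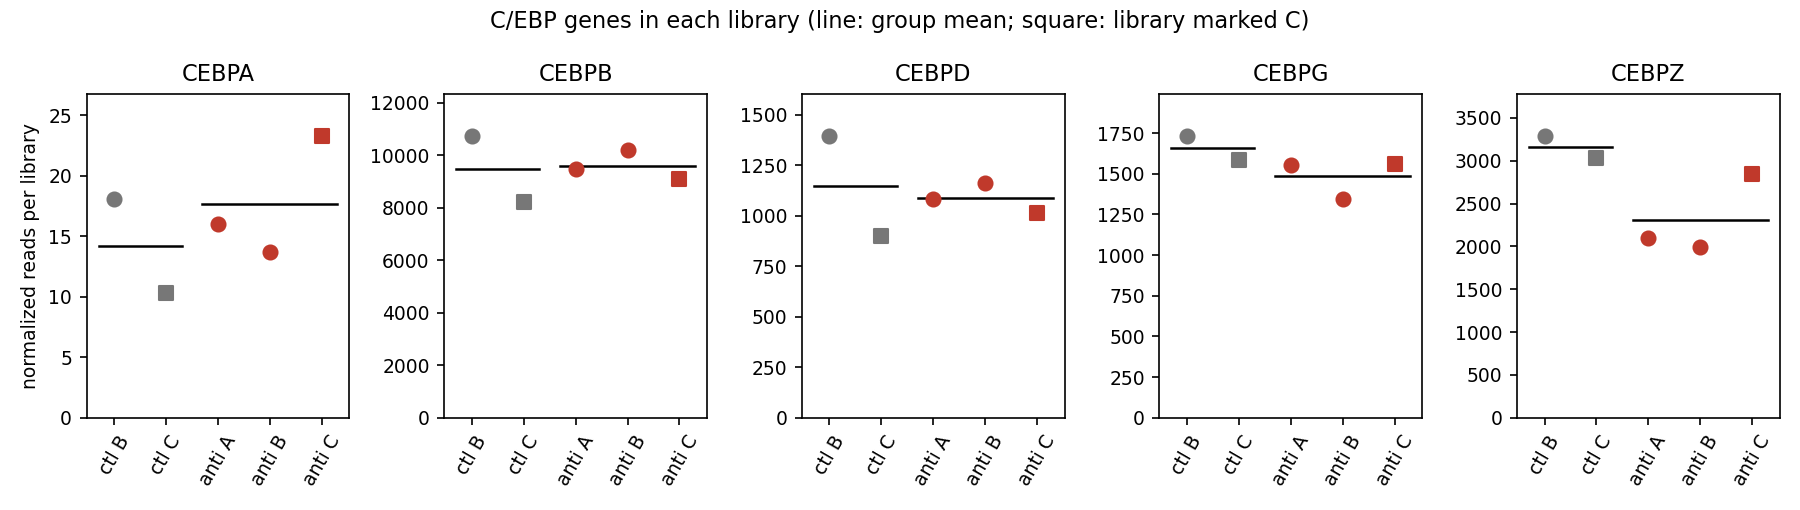
Normalized reads (y axis, each panel from 0 on its own linear scale) of the 5 C/EBP genes in the 2 control libraries (grey) and the 3 anti-miR-146a libraries (red), with lines at group means and squares for libraries marked C. CEBPZ has all 3 anti-miR-146a libraries below both controls, with anti-miR-146a C close to the controls, while CEBPB and CEBPD are lowest in the C library of each antagomir.

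CEBPB (chromosome 20, 50190734 to 50192689, plus strand, GRCh38) encodes C/EBP-beta. It was at 10743 normalized reads in control B and 8212 in control C, against 9484, 10185 and 9095 in libraries A, B and C of the anti-miR-146a group. The anti-miR-146a libraries thus lay inside the range of the controls, and within each antagomir the C library was the lowest. Group means were 9478 ± 1789 (SD, n = 2) and 9588 ± 553 (SD, n = 3). The log2 fold change was 0.028 (SE 0.14, 95% interval −0.32 to 0.38; limma adjusted p = 0.96). The sign depended on the controls, with −0.17 without control C and 0.22 without control B, and it was also negative without anti-miR-146a B (−0.016). Within letters, anti-miR-146a was at 0.948 of the control in the B libraries and at 1.11 of it in the C libraries.

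CEBPD (chromosome 8, 47736909 to 47739086, minus strand) encodes C/EBP-delta, an acute-phase factor induced by interleukins. It was at 1396 normalized reads in control B and 898 in control C, against 1081, 1160 and 1016 in libraries A, B and C of the anti-miR-146a group. As for CEBPB, the 2 controls enclosed all 3 anti-miR-146a libraries, and both C libraries were below the other 3, an arrangement shared by 20.3% of tested genes. The log2 fold change was −0.047 (SE 0.20, 95% interval −0.52 to 0.43; limma adjusted p = 0.951). It was −0.37 without control C and 0.27 without control B. Without both C libraries, which leaves control B as the only control, it was −0.32 (limma adjusted p = 0.0114), in a setting where 25.8% of genes passed. The ratio of anti-miR-146a to control was 0.831 in the B libraries and 1.13 in the C libraries.

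CEBPG (chromosome 19, 33373330 to 33382686, plus strand) encodes C/EBP-gamma, a short member without an activation domain that pairs with other C/EBP proteins and with ATF4. It was at 1734 normalized reads in control B and 1587 in control C, against 1552, 1346 and 1562 in libraries A, B and C of the anti-miR-146a group. Control C was close to anti-miR-146a A and C, so the groups were only just separate. The means were 1661 ± 104 (SD, n = 2) and 1487 ± 122 (SD, n = 3), 10.5% lower with anti-miR-146a. The log2 fold change of −0.16 (SE 0.12, 95% interval −0.44 to 0.12) did not pass (limma adjusted p = 0.643). Without both C libraries, a fit with control B as its only control in which 25.8% of genes passed, it was −0.26 (limma adjusted p = 0.0352). Anti-miR-146a was at 0.776 of control in the B libraries and at 0.984 in the C libraries.

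CEBPA (chromosome 19, 33299934 to 33302564, minus strand) encodes C/EBP-alpha, which drives differentiation of fat and myeloid cells. It had 19 reads in control B and 11 in control C, against 17, 15 and 23 reads in libraries A, B and C of the anti-miR-146a group. The exact 95% counting interval ran from 5.49 to 19.7 reads in control C and from 14.6 to 34.5 in anti-miR-146a C, the lowest and the highest library, and these intervals overlap. They cover counting error only. The log2 fold change was 0.31 (SE 0.40, limma adjusted p = 0.814), and −0.068 without control C. The 95% interval of the difference, from −0.65 to 1.27, spans 0. CTD-2540B15.7, an antisense gene that shares 482 exonic bases with CEBPA, had at most 1.01 normalized reads in any library. CEBPA-AS1 is a non-coding gene that starts 293 bases from CEBPA on the other strand. It was about as low as CEBPA, at 19.1 and 14.9 normalized reads in the control group against 16.0, 18.3 and 12.1.

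CEBPZ (chromosome 2, 37201612 to 37231713, minus strand) was at 3291 normalized reads in control B and 3036 in control C, against 2101, 1992 and 2845 in libraries A, B and C of the anti-miR-146a group. Both controls were above all 3 anti-miR-146a libraries, but anti-miR-146a C was nearer to the controls than to anti-miR-146a A and B. Group means were 3163 ± 181 (SD, n = 2) and 2313 ± 464 (SD, n = 3), 26.9% lower with anti-miR-146a. The log2 fold change was −0.47 (SE 0.17, 95% interval −0.88 to −0.053), with an unadjusted limma p of 0.0327 and an adjusted p of 0.406. In the authors' deposited table CEBPZ has a fold change of 0.731, a p-value of 0.0301 and an adjusted p of 0.294.

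The CEBPZ difference lay mostly in the libraries not marked C. Anti-miR-146a was at 0.605 of control in the B libraries and at 0.937 of control in the C libraries, and with 1 library in each cell the difference between letters was not tested. With the C libraries as a term of the model the log2 fold change was −0.43 (SE 0.11, 95% interval −0.66 to −0.20), and CEBPZ passed as lower (limma adjusted p = 0.0163). That model called 15.4% of all genes tested, or 975 of 6317, and 429 (6.79% of those tested) were lower. It called no other C/EBP gene. Without both C libraries, which leaves 1 control assumed to vary like the anti-miR-146a libraries, it was −0.69 (adjusted p = 4.46e-11), and leaving out 1 library in turn gave −0.63 to −0.37 with no call.

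CEBPZ overlaps CEBPZOS, a protein-coding gene on the opposite strand, by 351 exonic bases. The strand setting of the read counting was not stated in the material used, so reads of this stretch cannot be assigned with certainty. CEBPZOS was at 1137 normalized reads in control B and 1134 in control C, against 1136, 903 and 1491 in libraries A, B and C of the anti-miR-146a group. Its groups overlapped, and its log2 fold change was 0.021 (SE 0.21, limma adjusted p = 0.986). CEBPB shares 231 exonic bases with the antisense gene CEBPB-AS1, which was at 79.2 and 106 normalized reads in the control group, against 60.4, 81.2 and 92.0 in the anti-miR-146a group. The antisense reads were thus few beside those of CEBPB.

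**Figure D2:**
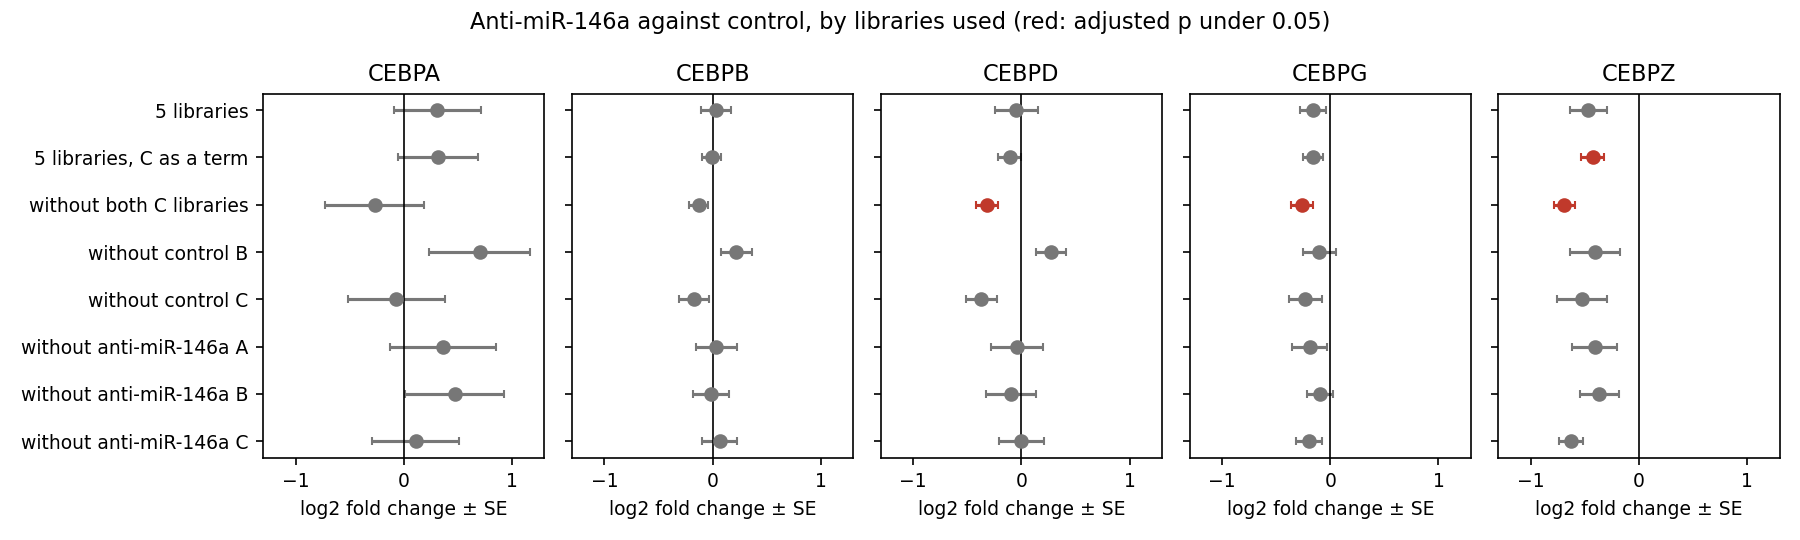
Log2 fold change of each C/EBP gene (x axis, anti-miR-146a over control, bars are the SE from limma) for all 5 libraries, with the C libraries as a term, and with libraries left out (y axis), red where the adjusted p was under 0.05. CEBPZ stays below 0 in every line, while CEBPA, CEBPB and CEBPD change sign with the controls used.

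The profiles of CEBPB and CEBPD were alike, and neither was like that of CEBPZ. Likeness was taken as the root mean square distance between log2(value + 1) profiles over the 5 libraries, each centred on its own mean. It was 0.087 between CEBPB and CEBPD, 0.20 between CEBPG and CEBPZ, and 0.34 between CEBPB and CEBPZ. By this distance CEBPG lay at 0.18 from CEBPB and 0.22 from CEBPD, about as far as from CEBPZ. The distance also grows with each profile's own spread (root mean square around its mean), which was 0.12 for CEBPG and 0.13 for CEBPB. That spread was 0.21 for CEBPD and 0.29 for CEBPZ. These distances therefore do not show which of them CEBPG followed in direction. Closeness over 5 libraries is common: of 4183 other genes with a mean of at least 100 normalized reads, 298 lay within 0.1 of CEBPB, 62 of CEBPD, 387 of CEBPG and 63 of CEBPZ. The nearest to CEBPB were CDYL (0.028), CRAMP1 and DSE, and the nearest to CEBPD were EGR2 (0.041), CEP19 and FMNL1. The nearest to CEBPG were GLO1 (0.021), CKAP2 and DNM1L. ASPH (0.044), C5orf15 and SEPTIN10 were nearest to CEBPZ, and ASPH was at 20811 and 20882 normalized reads in the control group against 14092, 12981 and 18237 with anti-miR-146a. For CEBPA, whose profile is mostly counting noise, the nearest gene was GAS2L3 at 0.17.

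Genes around the C/EBP proteins were followed in 7 lists of zipper proteins, regulators and downstream pathways, with 148 different tested gene rows. None of the 148 passed over all genes in limma. With the C libraries as a term 37 of them passed, or 25 percent, beside the 15.4% of all genes. The lists were chosen with earlier results of these data known. Shares of lists and of all genes were not matched for read level, here or below. Median log2 fold changes ran from −0.13 to −0.0076 over the lists. Listed genes whose symbols begin with later letters are mostly not analysed here, since 99.7% of the tested symbols begin with A to I.

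The list of zipper proteins covers the wider class, and not all its members are known to pair with C/EBP factors. Of 42 listed genes 26 were tested, 11 higher and 15 lower with anti-miR-146a. At an unadjusted p under 0.05 there were 1 higher and 4 lower, 19.2% of the list beside 11.3% of all genes. ATF4, the partner of C/EBP-gamma in the amino acid response, was at 7446 and 7144 normalized reads in the control group, against 6074, 6484 and 6076 in the anti-miR-146a group. All 3 anti-miR-146a libraries were below both controls, at a log2 fold change of −0.23 (SE 0.10, limma adjusted p = 0.446, or 0.0449 with the C term). CREBZF, another zipper protein, was at 1687 and 1337 in controls against 1083, 1025 and 1031, the smallest p of the list (log2 fold change −0.52, SE 0.13). CREBL2 (−0.49, SE 0.14) and CREB3L2, which is activated by cleavage at the endoplasmic reticulum (−0.33, SE 0.094), were lower as well without an adjusted call. With the C term 2 genes of this list passed as higher and 7 as lower, 34.6% of the list beside 15.4% of all genes. CREBZF, CREBL2, CREB3L2 and ATF4 were among the lower ones. The higher ones, named after their values were seen, were ATF7 and DBP. Their log2 fold changes were 0.40 and 0.68 without the term, and their limma adjusted p was 0.00614 and 0.0246 with it. The abundant BACH1 and FOSL1 overlapped between groups.

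Of the kinases, cofactors, decay factors and upstream signalling genes listed for C/EBP proteins, 21 of 36 were tested, 9 higher and 12 lower. HRAS was among those tested. FBXW7, which marks C/EBP-alpha and C/EBP-delta for degradation, was at 1290 and 1306 normalized reads in the control group, against 997, 897 and 1019 in the anti-miR-146a group. CELF1, an RNA-binding protein known to favour the short form of C/EBP-beta, had 5015 and 5377 against 3762, 3544 and 4665. Both lay below the controls in every anti-miR-146a library, with log2 fold changes of −0.42 (SE 0.11) and −0.39 (SE 0.14). Neither passed over all genes (limma adjusted p = 0.345 and 0.407), and both passed with the C term (0.00774 and 0.0124). With that term 0 regulators passed as higher and 3 as lower, or 14.3% of the list beside 15.4% of all genes. At an unadjusted p under 0.05 the list held 9.52%, beside 11.3% of all genes. The other lower one was IL1R1, an interleukin-1 receptor gene named after its values were seen. Its log2 fold change was −0.20 without the term, and its limma adjusted p was 0.00637 with it. CALR, which binds C/EBP transcripts, and the coactivator EP300 differed by less than the spread between libraries.

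Of the secretory and acute-phase targets of C/EBP-beta and C/EBP-delta, 19 of 31 were tested, and none passed on all 5 libraries alone. Fold changes were positive for 8 and negative for 11, with 5.26% of the list at an unadjusted p under 0.05 beside 11.3% of all genes. The chemokine CCL20 was at 596 normalized reads in control B and 985 in control C, against 331, 309 and 653 in libraries A, B and C of the anti-miR-146a group. It was lower within both letters, at 0.519 of control in the B libraries and 0.663 in the C libraries, but the groups overlapped because the C libraries were higher. CCL2, a monocyte chemokine, was at 0.653 and 0.656 of control. CSF3, which encodes the granulocyte growth factor G-CSF, had 1321 and 1887 against 2130, 1909 and 2431. None of the 3 passed on all 5 libraries alone (limma adjusted p of 0.44, 0.446 and 0.446), and with the C term CCL20 (0.000447) and CCL2 (0.000932) passed as lower and CSF3 (0.00241) as higher. The list then held 4 genes called as higher and 3 as lower, 36.8% beside 15.4% of all genes. Of its 3 most abundant genes, CXCL8 and IL1B did not pass with or without that term, while the neutrophil chemokine CXCL5 passed as lower with it (log2 fold change −0.34, SE 0.10, limma adjusted p = 0.0375) and not without it (−0.48, SE 0.38, adjusted p = 0.673).

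In the amino acid and redox response shared by ATF4 and C/EBP-gamma, 24 of 40 genes were tested, 11 higher and 13 lower. CHAC1, which degrades glutathione, was at 712 and 1107 normalized reads in the control group, against 1550, 1602 and 1626 in the anti-miR-146a group. It was 1.75-fold higher, above both controls in all 3 libraries (log2 fold change 0.84, SE 0.19; limma adjusted p = 0.333, or 0.000293 with the C term). FTL, the ferritin light chain, had 46142 and 43347 against 62943, 72041 and 54046 (0.48, SE 0.16), while FTH1, the heavy chain, overlapped between groups. ATF3, a stress-induced zipper protein, was at 2277 and 3212 in controls against 1755, 1883 and 2360, so its groups overlapped (log2 fold change −0.45, SE 0.19; limma adjusted p = 0.455, or 0.00762 with the C term). With the C term the list held 3 genes called as higher and 2 as lower, 20.8% beside 15.4% of all genes.

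Of the genes of fat cell formation, 13 of 29 were tested, 4 higher and 9 lower, or 69.2% lower beside 49.1% of all genes. FASN, the fatty acid synthase, was at 8199 and 8013 normalized reads in the control group, against 11140, 13080 and 9135 in the anti-miR-146a group (log2 fold change 0.44, SE 0.16). Its ratio to control was 1.60 in the B libraries and 1.14 in the C libraries. With the C term 2 genes of this list passed as higher and 1 as lower, or 23.1% beside 15.4% of all genes. Among E2F and cell cycle genes, 5 of 19 tested (26 listed) were higher and 14 lower, or 73.7% lower beside 49.1% of all genes. CDC25A, a phosphatase that starts S phase, had 278 and 275 in controls against 218, 211 and 203, and the kinase CDK4 had 2401 and 2264 against 2924, 3059 and 2688. The inhibitor CDKN2B had 879 and 943 against 675, 796 and 725. FASN and these 3 genes did not pass over all genes (limma adjusted p from 0.381 to 0.411), and each passed with the C term. The inhibitor CDKN1A, the most abundant cell cycle gene listed, lay on the higher side, at 16590 and 26149 in controls against 24750, 25920 and 31721. Its groups overlapped (log2 fold change 0.39, SE 0.22; limma adjusted p = 0.551), and with the C term it passed as higher (0.47, SE 0.089, adjusted p = 0.004). That model called 2 genes of the cell cycle list as higher and 4 as lower, 31.6% beside 15.4% of all genes.

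For the 38 ribosome assembly genes listed, the pathway of the yeast relative of CEBPZ, 29 gene rows were tested and none passed. EMG1 is counted once for each of its rows. Fold changes were negative for 21 and positive for 8, or 72.4% lower beside 49.1% of all genes, with a median log2 fold change of −0.10. GNL2, a nucleolar GTPase, was at 2791 and 3338 normalized reads in the control group, against 1763, 1839 and 2487 in the anti-miR-146a group. Like CEBPZ it was lower in all 3 libraries and least so in anti-miR-146a C (log2 fold change −0.61, SE 0.18). BMS1 (−0.27, SE 0.092) and BRIX1 (−0.35, SE 0.12), both nucleolar assembly factors, had groups that did not overlap. None of the 3 passed over all genes (limma adjusted p = 0.357, 0.381 and 0.396). With the C term 3 genes of the list were called as lower and 2 as higher, 17.2% of the list beside 15.4% of all genes. The higher ones, named after their values were seen, were the helicase DDX31, at 522 and 577 against 683, 651 and 744 (log2 fold change 0.33, SE 0.12), and the GTPase GNL3L, at 680 and 899 against 961, 989 and 1040 (0.35, SE 0.14). Their limma adjusted p was 0.403 and 0.44, or 0.0178 and 0.014 with the C term.

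**Figure D3:**
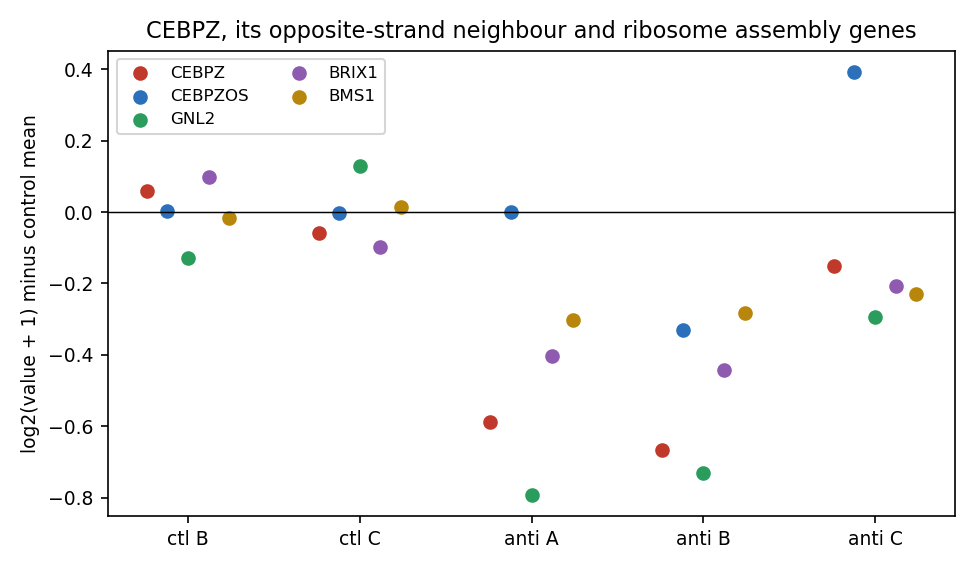
Log2(value + 1) minus the control mean (y axis) in each library (x axis) for CEBPZ, its opposite-strand neighbour CEBPZOS, and the 3 ribosome assembly genes with the smallest unadjusted p. CEBPZ, GNL2, BRIX1 and BMS1 are below the controls in all 3 anti-miR-146a libraries, and CEBPZOS is not.

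**Figure D4:**
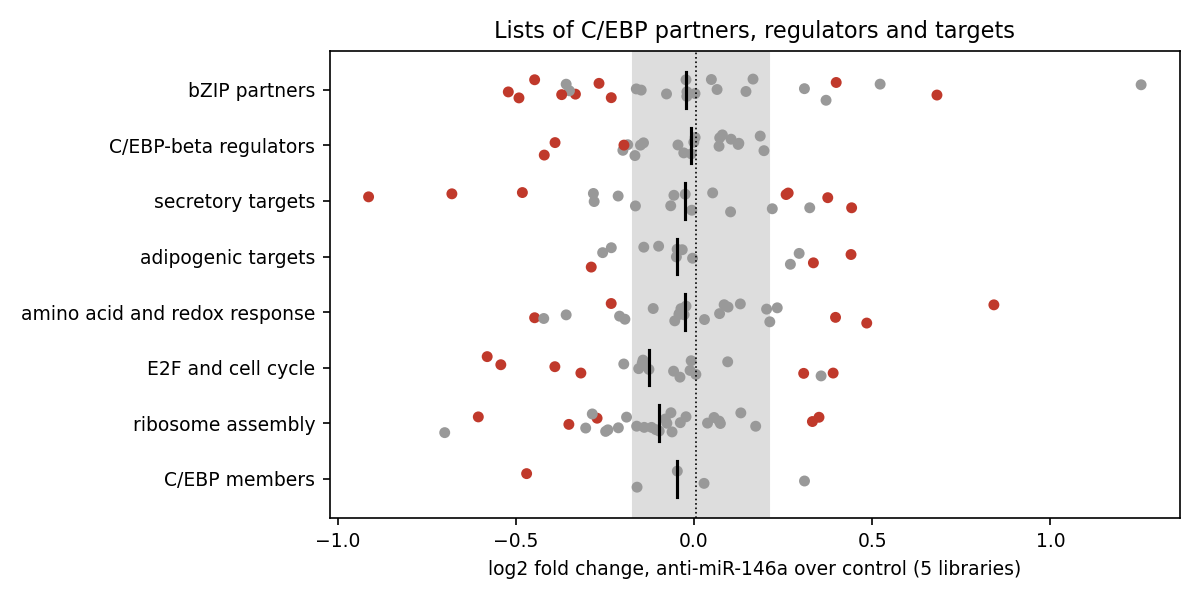
Log2 fold change over all 5 libraries (x axis) of each tested gene in the 7 lists and of the 5 C/EBP genes, with black bars at list medians, the grey band spanning the interquartile range of all tested genes and the dotted line their median. Red points are genes with an adjusted p under 0.05 in the model with the C libraries as a term, and they lie on both sides of 0 in every list but that of C/EBP-beta regulators, where all 3 are lower.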

How the data were processed

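RNA depleted of ribosomal RNA was sequenced from 5 libraries. Per the submitters' processing notes, Trimmomatic 0.35, STAR 2.5.1b, GRCh38 and DESeq2 1.22.2 were used. The sources used here do not give how reads were counted, nor the strand setting and annotation release. Each gene row of the deposited table holds 1 signal for every library: the authors divided the read count by a size factor. It also holds the fold change (a linear ratio), p-value and adjusted p-value of the authors' comparison. Its columns name the antagomir and a letter, which ties them to a group but not to a replicate number.

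The values were tested with limma 3.58.1 (R 4.3.3, trend option) on log2(value + 1), with the antagomir as the only term, for the 6317 genes that reached 10 in 2 or more libraries, which all 5 members did. Fold changes are on that scale, which understates those of low genes. The threshold was a Benjamini-Hochberg adjusted p under 0.05. All values (100%, tolerance 1e-06) were whole multiples of their column's smallest step, also in anti-miR-146a C, whose step of 1.01 lies close to 1, so reads were recovered and edgeR 4.0.16 and DESeq2 1.42.0 were run on them as alternatives. DESeq2 used the deposited size factors. Fits were tested on simulated counts that held no difference between the C libraries and the rest, so this test does not cover that difference. Positions and exon lengths came from GENCODE 29 (GRCh38) and were identical to the deposited positions for all 5 members.

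The members and lists were chosen with earlier results of these data known. Named genes were the members, genes named CEBP or within 10 kb with enough reads, the 3 most abundant genes and the 3 with the smallest unadjusted p of each list, part of which are given, the 3 nearest profiles of each member, and HRAS. HRAS was named because it sets the C libraries apart in these data. ATF7, DBP, IL1R1, DDX31, GNL3L and EMG1 were added later. Alternatives changed the pseudocount, filter, scaling, test, model and libraries.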

Additional observations from a re-analysis of the deposited data

How the results depend on the processing

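The pseudocounts of 0.1 and 5, the filters, TMM scaling in limma and edgeR kept the count of called genes at 0, while DESeq2 called 44, the model with the C libraries as a term 975, limma without both C libraries 1568 and limma without anti-miR-146a C 12. Leaving out 1 library gave 0 to 12 genes. Of the genes in the lists, 37 passed with the C term. CEBPZ was lower in all 15 alternatives, from −0.69 to −0.37, and passed in 3: without both C libraries (−0.69), with the C term (−0.43) and with the replicate block. That block, with the column letter as a term, called 636 genes and gave CEBPZ −0.41 (adjusted p = 0.01). Only B and C are shared between antagomirs, and the deviations of same-lettered libraries correlated at 0.50 and 0.66 across genes. With 2 controls, control B and control C deviate from their mean by opposite amounts, so these correlations are not independent. By root mean square log2 difference, control B was nearer to anti-miR-146a A (0.47) than to anti-miR-146a B (0.50). No source says that a letter marks a shared culture. CEBPG was lower in all 15 and passed without both C libraries (−0.26), as did CEBPD (−0.32). CEBPB turned negative with the C term (−0.01) and without both C libraries (−0.13), and CEBPA without both C libraries (−0.27). Leaving out 1 library moved CEBPA from −0.068 to 0.70, CEBPB from −0.17 to 0.22, CEBPD from −0.37 to 0.27, CEBPG from −0.23 to −0.092 and CEBPZ from −0.63 to −0.37. The filter of 50 in 2 libraries left no value for CEBPA. The causes were not tested. With 2 controls, 1 library decides the sign for CEBPA, CEBPB and CEBPD.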
